A study of Mus musculus with 16 samples.

Results

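The choroid plexus is the epithelial tissue of the brain ventricles that makes cerebrospinal fluid, and the levels of 9 of its characteristic genes were followed here in bulk RNA of mouse cortex and cerebellum. The genes are Ttr, Kl, Folr1, Clic6, Otx2, Aqp1, Slc4a5, Enpp2 and Prlr, which are 9 of the 37583 genes counted. They were picked by name because earlier results of these data had shown large differences between cerebellum libraries, so their spread over the cerebellum is a description and not a finding. RNA came from snap-frozen cortex and cerebellum of C57BL/6J mice, 4 wild-type and 4 carrying the Slc39a8 A391T (A393T) mutant allele, with 1 library per region and mouse and so 4 libraries in each of 4 groups. The methods describe the wild-type animals as males of 12 weeks and take RNA from the hemispheres opposite those used for glycan measurements. Slc39a8 encodes a transporter of metal ions, and the mutation replaces an amino acid. Its transcript had from 75 to 171 counts over all 16 libraries, which does not check the genotype labels.

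Choroid plexus epithelium forms a sheet of tight-junction cells over leaky capillaries, and a large part of the sheet lies in the roof of the fourth ventricle, directly beneath the cerebellum. The epithelium moves sodium, bicarbonate, chloride and water into the ventricle, and it secretes carrier proteins and hormones into the fluid. Transthyretin, the product of Ttr, carries thyroid hormone and the retinol-binding protein, and in the brain Ttr RNA is made mainly by this epithelium. Some of the genes also have known sources within brain tissue, among them the oligodendrocyte lineage for Enpp2 and the granule cell lineage of the cerebellum for Otx2.

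Counts on genes ran from 20813432 to 30497206 per library. Levels are given as CPM, the count of a gene set to the same total in each library, with the total scaled by TMM, a factor that evens out differences in RNA composition. Levels of different genes are compared only as TPM, which also divides by gene length. The deposited RPKM table gives 8 of the 16 libraries, those of 4 mice, a different name from their count files. It calls the wild-type mice 1 and 2 A391T mice 3 and 4, in cortex as in cerebellum, and calls A391T mice 3 and 4 wild-type. The names of the count files are used, and the genotype comparisons are also given under the names of the table. The cerebellum libraries carried cerebellar neuron markers, with a summed level from 3838 to 4233 CPM against 168.5 to 204.8 CPM in cortex. A391T cerebellum mouse 1 stood apart from the other cerebellum libraries over all genes (median r across genes of 0.982 against at least 0.992 for the others) and held the highest summed level of meningeal and fibroblast markers, 425.7 CPM.

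The 9 genes differed widely in level even within the cerebellum. By TPM, Ttr had a median of 4219 over the 8 cerebellum libraries, far above Enpp2 with 690.8 TPM. Clic6 (34.8 TPM), Kl (25.6 TPM), Folr1 (17.9 TPM), Otx2 (12.7 TPM), Aqp1 (10.7 TPM) and Slc4a5 (7.22 TPM) followed, and Prlr was lowest with 1.64 TPM. Neighbours in this order overlapped in their ranges over the libraries, except that the lowest level of Enpp2, 132.4 TPM, was above the highest of Clic6, 44.5 TPM. In cortex the order was led by Enpp2 with a median of 262.8 TPM over 8 libraries, followed by Ttr with 9.36 TPM. Kl had a cortex median of 2.22 TPM and Clic6 of 1.98 TPM, and the medians of the other 5 genes were under 1 TPM.

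Of the secreted proteins, Ttr set the scale of the variation. In wild-type cerebellum it had 2187, 2516, 8.16 and 1599 CPM in mice 1 to 4, and in A391T cerebellum 807.5, 1791, 1006 and 8.94 CPM. Wild-type mouse 3 and A391T mouse 4 thus stood far below the other 6 libraries, and each had 215 counts on Ttr where the other 6 had at least 22573. The highest level was 308 times the lowest. Among the other 6 libraries the highest was 3.12 times the lowest. The cortex libraries had from 1.14 to 13.3 CPM with a median of 3.21. Both low cerebellum libraries lay within this range only through the cortex library of wild-type mouse 3, at 13.3 CPM. The next highest cortex library had 5.19 CPM.

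Kl encodes klotho, a membrane protein that is shed into the fluid and acts as a co-receptor for FGF23. Its level was 48.1, 64.1, 2.62 and 46.9 CPM in wild-type cerebellum and 26.4, 41.5, 25.8 and 2.00 CPM in A391T cerebellum, in the order of mice 1 to 4. The lowest library lay below all cortex libraries, which ran from 2.57 to 4.59 CPM, and the highest was 32.1 times the lowest. Enpp2 encodes autotaxin, a secreted enzyme that makes lysophosphatidic acid. It had 959.1, 1188, 135.8 and 797.1 CPM in wild-type and 711.2, 820.7, 561.3 and 167.9 CPM in A391T cerebellum. Here the same 2 libraries were below every cortex library (269.6 to 336.9 CPM), whereas the other 6 were above every cortex library.

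**Figure D1:**
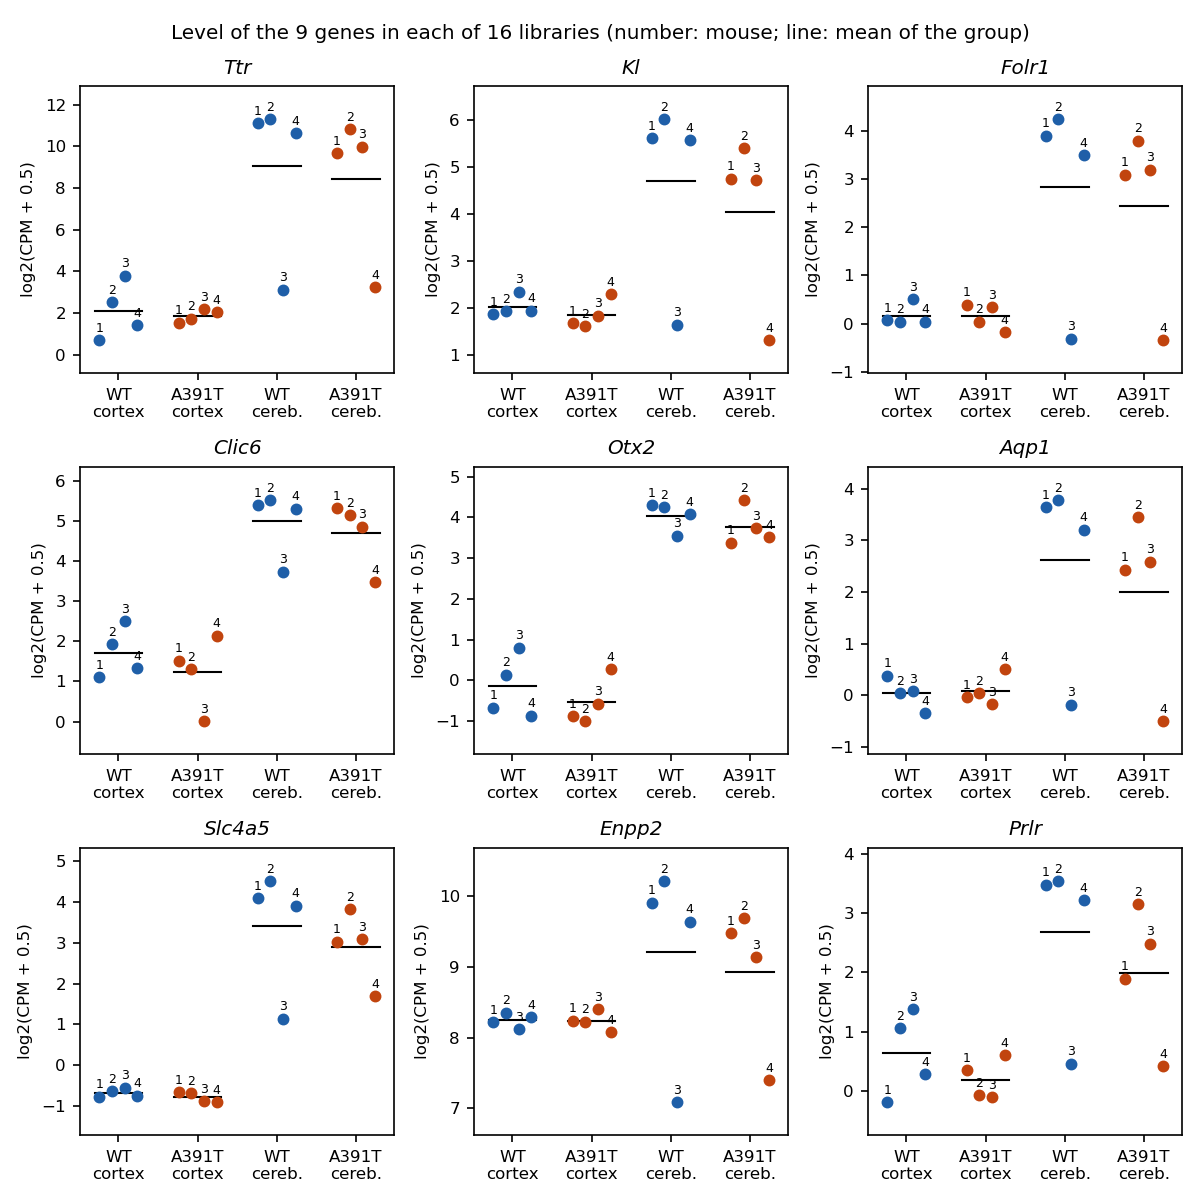
Level of each of the 9 genes in the 16 libraries, as log2(CPM + 0.5) on axes that differ between panels. Points are libraries numbered by mouse (blue wild-type, red A391T) and lines are means of the 4 log2 values of a group. Wild-type mouse 3 and A391T mouse 4 lie below the other cerebellum libraries for 8 of the 9 genes, and for Otx2 the 8 cerebellum libraries lie close together.

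The receptors showed the same pair of low libraries. Folr1, the folate receptor that carries folate across the epithelium into the fluid, had 14.4, 18.4, 0.304 and 10.8 CPM in wild-type and 7.98, 13.3, 8.65 and 0.291 CPM in A391T cerebellum. These low values rest on 8 and 7 counts, and both lie below all cortex libraries (0.388 to 0.918 CPM). Prlr, the prolactin receptor, had 10.7, 11.2, 0.873 and 8.82 CPM in wild-type and 3.22, 8.38, 5.12 and 0.831 CPM in A391T cerebellum. Both low values were within the cortex range of 0.379 to 2.11 CPM. The ratio of the highest to the lowest library was 63.1 for Folr1 and 13.4 for Prlr.

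Among the genes of water and ion transport, Aqp1 varied most. This water channel of the apical membrane had 12.0, 13.2, 0.380 and 8.74 CPM in wild-type cerebellum and 4.90, 10.4, 5.52 and 0.208 CPM in A391T cerebellum, a 63.7-fold range whose lowest value is 5 counts. Slc4a5, a sodium bicarbonate cotransporter of the same membrane, had 16.6, 22.3, 1.71 and 14.5 CPM in wild-type and 7.66, 13.6, 8.00 and 2.74 CPM in A391T cerebellum. Its low libraries still lay above all cortex libraries, none of which exceeded 0.184 CPM or 4 counts. Clic6, a member of the intracellular chloride channel family, had 41.6, 45.3, 12.8 and 39.0 CPM in wild-type and 39.4, 34.7, 28.5 and 10.6 CPM in A391T cerebellum, against 0.511 to 5.19 CPM in cortex. The range was 13.1-fold for Slc4a5 and 4.29-fold for Clic6.

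Otx2, a homeodomain transcription factor needed to form and maintain the choroid plexus, departed from this pattern. Its levels were 19.2, 18.5, 11.2 and 16.4 CPM in wild-type and 9.91, 20.98, 12.8 and 10.9 CPM in A391T cerebellum. Its lowest library was A391T mouse 1 rather than either of the pair, and the highest level was 2.12 times the lowest. In cortex Otx2 had from 0 to 27 counts per library and at most 1.24 CPM. Every cerebellum library was therefore above every cortex library for Otx2, including both in which Ttr was far lower than in the rest.

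The reason for choosing the genes, a range over 100-fold between cerebellum libraries, held for Ttr alone of the 9. Of the 15668 genes with enough counts in cerebellum, 2 exceeded this ratio: Ttr and Sostdc1, whose lowest library had a count of 0, so that its ratio against a floor of 3 counts in that library is at least 116. In all, 80 genes (0.511%) had a ratio over 10, and these included 6 of the 9 genes, with Enpp2 at 8.75, Clic6 at 4.29 and Otx2 at 2.12. The median ratio of all genes was 1.48. Wild-type mouse 3 and A391T mouse 4 were the lowest pair of libraries for 8 of the 9 genes, against 564 of the 15668 genes (3.60%). At the upper end, wild-type mouse 2 had the highest level for 8 of the 9 genes, and wild-type mouse 1 the second highest for all 9.

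**Figure D2:**
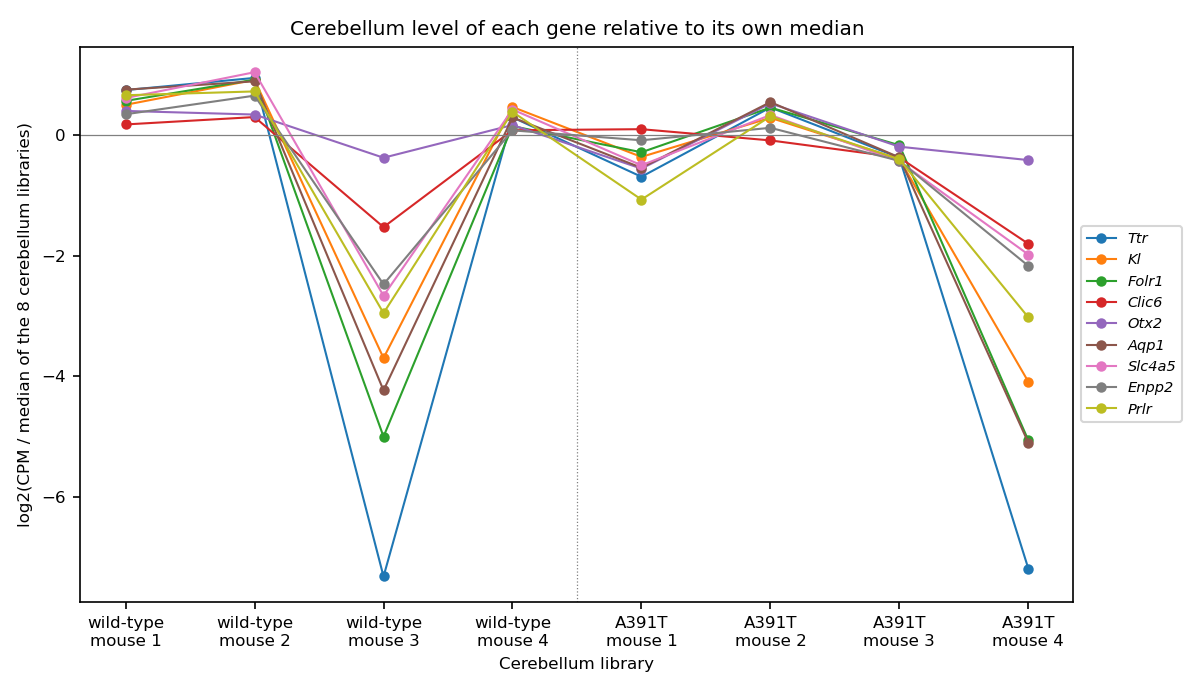
Level of each gene in each cerebellum library relative to the median of the 8 libraries, on a log2 scale. Each line joins the values of 1 gene and carries no order of the mice. In wild-type mouse 3 and A391T mouse 4 the 8 genes other than Otx2 lie far below their medians, Ttr the furthest.

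The proportions of the genes to one another differed between the low libraries and the rest. They are given as shares of counts, which follow a pair of genes across libraries and do not rank the genes by level. In the other 6 cerebellum libraries the Aqp1 count was from 0.526% to 0.607% of the Ttr count, a narrow range for libraries whose Ttr levels differed 3.12-fold. The Kl count was from 2.20% to 3.27% of the Ttr count in those libraries, the Slc4a5 count from 0.758% to 0.948% and the Otx2 count from 0.733% to 1.27%. In wild-type mouse 3 and A391T mouse 4, Aqp1 came to 4.65% and 2.33% of Ttr, Kl to 32.1% and 22.3% and Slc4a5 to 20.9% and 30.7%. Otx2 came to 137.7% and 122.3% of Ttr in counts, while by TPM, which allows for the greater length of Otx2, Ttr was still the higher, at 26.7 against 9.89 TPM and 28.7 against 9.42 TPM. Enpp2 was from 43.9% to 88.1% of Ttr in the 6 libraries and 1664% and 1879% in the other 2. Summed over the 9 genes, the level was 173.8 CPM in wild-type mouse 3 and 204.4 CPM in A391T mouse 4, and from 1618 to 3897 CPM in the other 6. In bulk tissue, fewer choroid plexus cells in a sample and less RNA per cell cannot be told apart.

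A further 24 genes known from choroid plexus were listed to see how far the pattern extended. They too were listed with earlier results of these data known, so they are a description and no independent check. The same 2 libraries were the lowest pair for 23 of the 24, the exception being Slc29a4, beside 3.6% of all 15668 genes. Of the 24, 11 had a ratio over 10, beside 0.511% of all genes. The median ratio of the 24 was 9.17, beside 1.48 for all genes. The 5 most abundant of the list in cerebellum by mean TPM were Slc29a4, 1500015O10Rik, Ace, Slc13a4 and Kcne2. Slc29a4, a transporter of monoamines, had 50.1 CPM in wild-type mouse 3 and 58.5 CPM in A391T mouse 4, within its range of 40.1 to 67.6 CPM in the other 6 libraries. 1500015O10Rik had 2.96 and 3.20 CPM against at least 16.0 CPM in the other 6. Ace, the angiotensin-converting enzyme, which endothelial cells also make, had 19.9 and 20.5 CPM against at least 23.0 CPM. Slc13a4, a sulfate transporter that meningeal cells also express, had 18.3 and 16.9 CPM against at least 19.0 CPM. Kcne2, a potassium channel subunit of the epithelium, had 0.228 and 0.208 CPM against at least 5.33 CPM, and its low values lay within the cortex range of 0.0955 to 0.276 CPM.

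Ranked by likeness over the 8 cerebellum libraries, measured as Pearson's r between log2(CPM + 0.5) of a gene and the mean of the 9 genes, the first 10 of 15659 other genes were Kcne2 (r = 0.9994), Car12, 1500015O10Rik, Krt18, Sostdc1, Cldn2, Mfrp, F5, Abca4 and Trpv4 (r = 0.983). All of these except Mfrp were on the choroid plexus list. The 8 points share the contrast of 2 low with 6 high libraries, which dominates every such r. In all, 71 genes (0.453%) had an r over 0.9, and 18 of the 24 listed genes were among them. For Sostdc1, a secreted inhibitor of BMP and Wnt signalling, the low libraries held 0 and 0.0759 CPM and the other 6 at least 5.69 CPM. Car12, a carbonic anhydrase, had 1.33 and 1.25 CPM in the low libraries, below its cortex range of 9.54 to 18.7 CPM. Cldn2, a claudin of leaky epithelia, had 1.14 and 1.12 CPM, above its cortex maximum of 0.459 CPM. Each of the 9 genes had an r from 0.970 to 0.998 with the mean of the others, except Otx2 with 0.717.

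The 9 genes were chosen for wide ranges, and smaller ranges were seen over the same libraries for genes that act with their products. Of those with enough counts, none of the 11 genes of fluid secretion, 3 of folate uptake, 8 of klotho and FGF receptors, 7 of prolactin signalling, 10 of lysophosphatidic acid signalling or 11 of thyroid hormone and retinol handling had a ratio over 10. Of all 15668 genes 0.511% had such a ratio, so none in these lists is near that share. Median ratios of the lists ran from 1.22 to 1.69, beside 1.48 for all genes. In fluid secretion the widest was Fxyd1, a regulator of the sodium pump, with a ratio of 2.17. In thyroid hormone and retinol handling the widest was Crabp2, an intracellular carrier of retinoic acid, with 3.09. The partner of Folr1 in folate transport, Slc46a1, had a ratio of 1.22, and the widest of that list were Folr2 (2.00) and Slc46a1. Fgf23 had a ratio of 3.10 at no more than 1.44 CPM, and Adam17, a sheddase, 1.49. Ghr, the growth hormone receptor, had 1.92 and Stat5a 1.33 in the prolactin list, in which Prl was at 0 in all 8 libraries. Lpar2 had a ratio of 1.73 and Ppap2c of 1.65 in the lysophosphatidic acid list.

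The summed levels of markers of other cell types varied less than that of the 9 genes. The ependymal list, cells that line the ventricles next to the choroid plexus, summed to 20.8 CPM in wild-type mouse 3 and 30.9 CPM in A391T mouse 4 against 31.99 to 40.8 CPM in the other 6, and 4 of its 9 genes with enough counts had the same lowest pair. Meningeal and fibroblast markers summed to 267.4 and 275.0 CPM against 292.3 to 425.7 CPM, and 2 of 11 genes had that pair lowest. Oligodendrocyte markers summed to 4123 CPM in wild-type mouse 3, the lowest library, and to 5954 CPM in A391T mouse 4, within the range of 4747 to 6574 CPM of the others. For endothelial cells the sums were 408.5 and 416.1 CPM against 399.0 to 453.0 CPM, and for blood 88.5 and 123.5 CPM against 89.1 to 157.8 CPM. Brainstem markers summed to 2.28 and 1.58 CPM against 1.28 to 9.22 CPM, a 7.22-fold range, the widest of these lists, with Slc6a2, the noradrenaline transporter, from 0.457 to 6.57 CPM, and neither of its 2 genes with enough counts had that pair lowest. Cortical neuron markers summed to 85.6 and 79.9 CPM against 65.5 to 84.0 CPM. Cerebellar neuron markers differed 1.10-fold over the 8 libraries. The part of ependymal, meningeal, oligodendrocyte and brainstem RNA in the levels of the 9 genes was not tested.

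**Figure D3:**
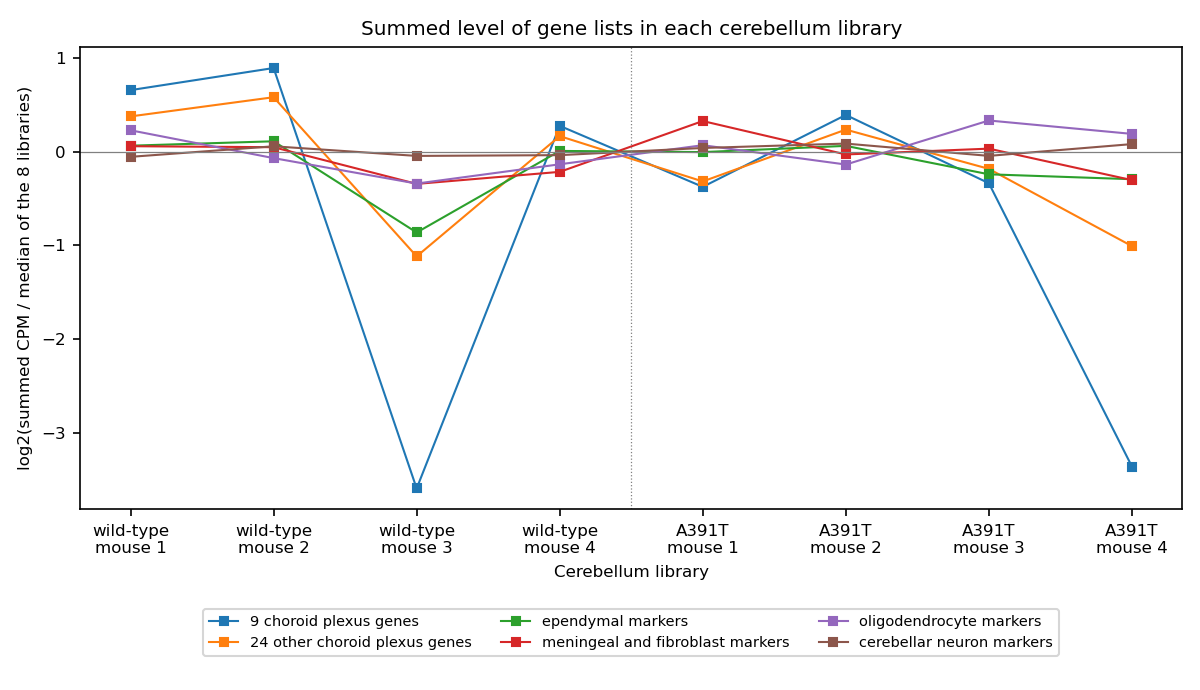
Summed CPM of 6 gene lists in each cerebellum library, relative to the median of the 8 libraries on a log2 scale. The 9 genes sum to 173.8 and 204.4 CPM in wild-type mouse 3 and A391T mouse 4 against at least 1618 CPM elsewhere, and the 24 other choroid plexus genes to 111.5 and 120.3 CPM against at least 194.1 CPM. Cerebellar neuron markers stay between 3838 and 4233 CPM.

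The comparison of the regions asked how the level of each gene in cerebellum stood against that in cortex of the same genotype. In the 6 cerebellum libraries other than the low pair, all 9 genes were above every one of the 8 cortex libraries. This held for 25.7% of the 15668 genes. The pair was left out for its low levels of these same genes, so nothing is read from this. In each library of the pair, only Clic6, Otx2 and Slc4a5 were above all cortex libraries. In wild-type mice all 9 were called higher in cerebellum, at an adjusted p under 0.05 and at least 2-fold (edgeR's quasi-likelihood test, Benjamini-Hochberg adjustment over all genes). Of all 16040 genes tested 10.5% were called in this direction and 24.7% in either. The cerebellum libraries of this contrast are those that chose the genes, and nothing is read from the count. The log2 fold change was 8.18 ± 1.41 (standard error, n = 4 and 4) for Ttr, 6.71 ± 0.88 for Slc4a5, 5.00 ± 0.43 for Otx2, 4.12 ± 0.86 for Folr1 and 3.96 ± 0.81 for Aqp1. It was 3.51 ± 0.43 for Clic6, 3.49 ± 0.70 for Kl, 2.70 ± 0.66 for Prlr and 1.34 ± 0.46 for Enpp2. The value of Slc4a5 rests on 2 to 4 counts per wild-type cortex library.

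The low library of wild-type mouse 3 enters these values. Without it the log2 fold change was 8.58 for Ttr and 1.67 for Enpp2, and all 9 genes were called. Enpp2 was the gene nearest the threshold, with an adjusted p of 0.023 from edgeR. It was not called when the cerebellum library of mouse 1 or 2 or the cortex library of mouse 1 or 3 was left out (edgeR adjusted p from 0.054 to 0.069). Without the cortex library of mouse 3, the log2 fold change was 9.06 for Ttr and 5.82 for Otx2. With mouse as a block the log2 fold change of Enpp2 was 1.03 (edgeR adjusted p = 0.078), and under the names of the RPKM table, which place both low libraries in the wild-type group, it was 0.47 (edgeR adjusted p = 0.38). Under those names all 9 log2 fold changes in wild-type mice were smaller, up to 6.84 ± 1.62 for Ttr, the median of the 9 was 2.95 in place of 3.96, and 8 genes were called. With both changes 4 genes were called, Folr1, Clic6, Otx2 and Slc4a5. For Ttr the value was then 4.76 with an edgeR adjusted p of 0.077.

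In A391T mice 8 of the 9 genes were called higher in cerebellum, against 9.80% of 16005 genes. These cerebellum libraries too are among those that chose the genes, and nothing is read from this count. Log2 fold changes were again highest for Ttr at 8.12 ± 1.29 (standard error, n = 4 and 4), Slc4a5 at 6.54 ± 0.66 and Otx2 at 5.74 ± 0.56. The value of Otx2 was 7.49 without the cortex library of mouse 4, which held 20 counts on the gene against at most 4 in the other 3 A391T cortex libraries. Enpp2 had 0.89 ± 0.37 and missed the threshold with an edgeR adjusted p of 0.060. Without A391T mouse 4 in cerebellum its log2 fold change was 1.196 and it was called, as it was under the names of the table with 1.57. With those names all 9 values in A391T mice were larger, up to 9.26 ± 0.52 for Ttr, the median of the 9 was 4.10 in place of 3.59, and all 9 genes were called. Of the 24 other choroid plexus genes, 13 of 18 tested were called higher in cerebellum in wild-type mice, beside 10.5% of all genes. In A391T mice 12 of 19 were, beside 9.80%, and none was lower in either. Median log2 fold changes were 1.99 and 2.05 beside 0.018 and 0.026 for all genes. Under the names of the table these counts were 9 of 19 and 20 of 23, beside 1582 of 16004 and 1672 of 16036 genes. The medians were then 1.24 and 3.19. In cortex alone 14 of the 24 had enough counts for a test, so others were tested through their higher cerebellum counts. The list was written with earlier results known, and nothing is read from these counts. Of the 11 genes of retinol and thyroid hormone handling, 4 were called lower and 1 higher in wild-type cerebellum, beside 2270 lower and 1685 higher of all 16040 genes. Thrb, a thyroid hormone receptor, had -2.74 ± 0.10 and Rbp4, which transthyretin carries, -1.96 ± 0.12.

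Cortex offered a set of libraries that had no part in choosing the genes, and the levels there were low and also uneven. Ttr had 1.14, 5.19, 13.3 and 2.20 CPM in wild-type and 2.40, 2.81, 4.00 and 3.60 CPM in A391T cortex. The cortex library of wild-type mouse 3 was the highest for 7 of the 9 genes, all but Aqp1 and Enpp2, whereas the cerebellum library of the same mouse was in the lowest pair for 8. It was also highest in cortex for the summed ependymal markers, 41.0 CPM against a low of 20.6 CPM, and for the 24 other choroid plexus genes, 86.0 CPM, though A391T mouse 4 was close to it with 84.4 CPM and the other 6 had from 64.1 to 73.1 CPM. Clic6 in cortex ran from 0.511 to 5.19 CPM and Prlr from 0.379 to 2.11 CPM, whereas Enpp2 differed 1.25-fold over the 8 cortex libraries.

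The comparison of A391T with wild-type cortex asked whether the mutation went with a change in these genes. Of the 9 genes 7 had enough counts for the test, Otx2 and Slc4a5 being too low, and 0 of the 7 were called at adjusted or unadjusted p under 0.05 by edgeR, nor any by DESeq2. Over all 15815 genes tested 1 was called (0.00632%) and 748 had an unadjusted p under 0.05. The log2 fold changes, A391T over wild type, ran from -0.83 ± 0.47 for Prlr (standard error, n = 4 and 4) and -0.76 ± 0.56 for Ttr to 0.10 ± 0.35 for Aqp1. Without the cortex library of wild-type mouse 3 the value of Ttr was 0.13. The value nearest 0 was that of Enpp2, -0.011 ± 0.075. Without wild-type mouse 1, 2 genes had an unadjusted p under 0.05, Prlr at -1.12 and Ttr at -1.10, without wild-type mouse 4 Prlr alone did, at -0.99, and 0 were called in either. Under the names of the table, Kl alone of the 7 had an unadjusted p under 0.05, at -0.40 ± 0.16 (edgeR adjusted p = 0.88), the values ran from -0.98 for Ttr to 0.056 for Aqp1, and 0 were called.

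In cerebellum all 9 genes were tested and 0 were called, against 0.00% of 15668 genes. With all 8 libraries none had an unadjusted p under 0.05 by edgeR or DESeq2, whereas 1340 of all genes did by edgeR, and DESeq2 called 9 genes, none of them among the 9. All the log2 fold changes were negative, from -0.83 ± 0.71 for Prlr (standard error, n = 4 and 4), -0.80 ± 1.33 for Ttr and -0.77 ± 0.63 for Slc4a5 to -0.25 ± 0.25 for Otx2. Each group held 1 of the low libraries, and the groups overlapped for every gene. Without A391T mouse 1, the library that stood apart over all genes, the values ran from -0.12 to -0.79. Without wild-type mouse 3, Slc4a5 at -1.15 and Prlr at -1.22 had an unadjusted p under 0.05, and without A391T mouse 2, Otx2 did at -0.54, with 0 genes called in either. With each library left out in turn all values stayed negative, from -1.37 to -0.39 for Ttr, from -1.26 to -0.30 for Aqp1 and from -0.57 to -0.013 for Clic6. Under the names of the RPKM table both low libraries were wild-type, the 4 A391T libraries were above both for all genes but Otx2, and all 9 log2 fold changes turned positive, from 0.42 for Otx2 to 1.48 for Ttr. Then 2 genes, Clic6 and Enpp2, had an unadjusted p under 0.05 and again 0 were called. The direction of the genotype difference thus depended on which names are right, which was not tested.

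**Figure D4:**
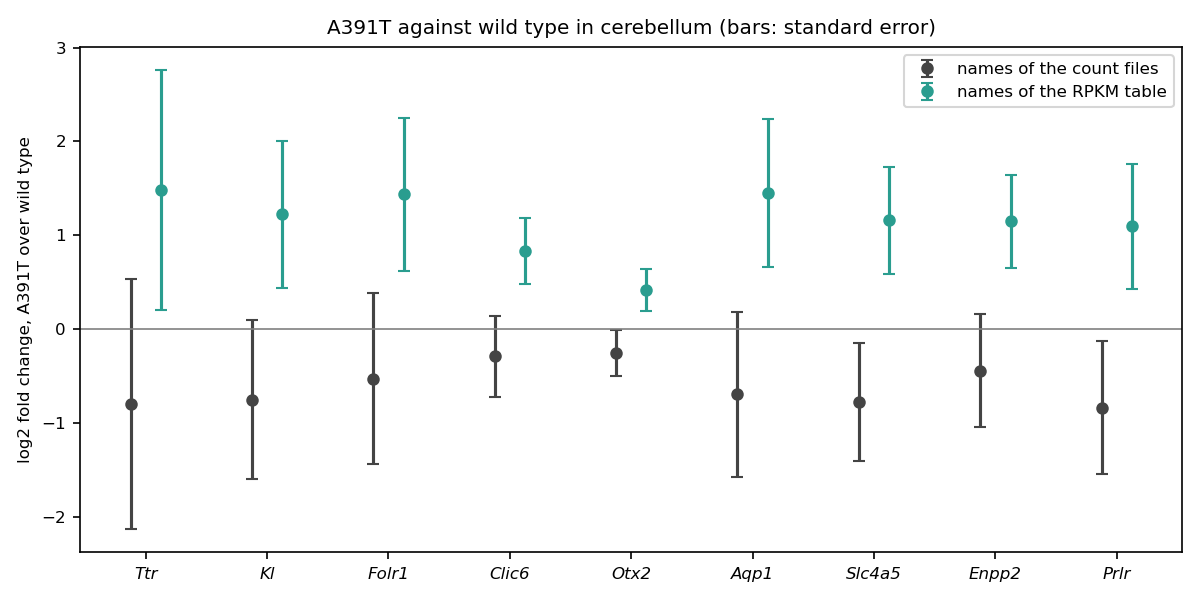
Log2 fold change of A391T over wild type in cerebellum with its standard error for each of the 9 genes, under both sets of library names. All 9 values are below 0 with the names of the count files and above 0 with the names of the RPKM table, and none was called.

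Without both low libraries, a choice made after seeing the data, the log2 fold changes ran from -0.29 to -0.87 with 3 libraries in each group. Under the names of the table this removal left 2 wild-type and 4 A391T libraries, and the values were positive from 0.23 to 0.50. The 2 libraries were left out for their levels of these same genes, so these values are a description and no test is given for them. The difference of the region effect between genotypes was tested over all 16 libraries, and 0 of the 9 genes and 0.00% of 16589 genes were called by edgeR, with 805 of all genes but none of the 9 at an unadjusted p under 0.05. DESeq2 also called 0. The differences ran from -0.80 for Aqp1 to 0.75 for Otx2 on the log2 scale. Under the names of the table they ran from 0.68 for Slc4a5 to 2.43 for Ttr, and again 0 were called by edgeR and none had an unadjusted p under 0.05, against 1578 of all genes.

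In the NCBIM37 (mm9) annotation of protein-coding genes, Kl lies at chr5:151755182-151796384, Folr1 at chr7:109006845-109019302 on the minus strand, Clic6 at chr16:92485981-92541488 and Aqp1 at chr6:55286426-55298549. Slc4a5 lies at chr6:83169822-83254939, Otx2 at chr14:49277354-49287319 on the minus strand, Enpp2 at chr15:54670453-54751701 on the minus strand and Prlr at chr15:10106993-10303504. Counting ignored strand, and of the 9 genes 2 share exon bases with another gene, Ttr 0.902% of its bases and Prlr 1.00%. No values of the overlapping genes are drawn on.

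Because Otx2 binds the motif TAATCC and is itself one of the genes, the promoters of the members were searched for it on both strands, from 250 bases before to 50 bases after each start in RefSeq (GRCm38.p6). Of the 8 genes other than Ttr, whose promoter and position are not reported here, promoters were found for 5, 10 in all. Of these, 1 held the motif, a promoter of Otx2, against 2320 of 32851 promoters (7.06%). It is shown as the only promoter of the set with a match, for the 250 bases before the start at chr14:48665110-48665359, minus strand, with the match in capitals (GGATTA, the motif on the other strand).
Otx2: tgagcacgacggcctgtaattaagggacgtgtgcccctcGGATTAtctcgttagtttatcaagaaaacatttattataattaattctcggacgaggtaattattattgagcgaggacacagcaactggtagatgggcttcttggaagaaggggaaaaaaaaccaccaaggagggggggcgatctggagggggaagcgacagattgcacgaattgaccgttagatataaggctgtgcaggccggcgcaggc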

How the data were processed

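RNA was purified by the authors from snap-frozen cortex and cerebellum with a lipid tissue kit, selected for polyA and made into directional libraries. Per the methods and the submitters' processing notes, the authors aligned the reads to mm9 with STAR and used HTSeq to count them on Ensembl genes, without regard to strand. edgeR is also named. The authors deposited counts as whole numbers with no normalization, 1 set per library, and a table of RPKM values, normalized by the authors for library size and gene length, for all 16 libraries. Entries on no gene (10.2% to 13.2%), ambiguous (2.20% to 2.75%) or not unique (8.41% to 12.1%) stayed out of totals and tests. The RPKM table gave gene names and lengths. Its 16 columns were matched to the counts by proportion, which showed the 8 whose names differ. No pair of libraries of the same group agreed within sampling noise (chi-square between 2.93 and 69.0 for each degree of freedom).

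Counts were tested here with edgeR 4.0.16 (R 4.3.3, limma 3.58.1) using filterByExpr, TMM and quasi-likelihood tests, with Benjamini-Hochberg adjustment over all genes. Counts were simulated for wild-type cerebellum against cortex and for A391T against wild-type cerebellum. In each, 200 of 200 changed genes were called, with 2 and 1 false calls. The simulation gave every gene the same small spread between libraries and set large changes in well-counted genes. It checks the code only and gives no power for the 9 genes, whose spread over cerebellum was wider. The 9 genes and all 16 lists were chosen with earlier results of these data known. Of the listed genes 3 had no entry. Named genes were the 9, the 5 most abundant of the other choroid plexus list, the 10 most like the 9, and in each partner list up to 2 with the largest ratio. Some genes that this rule takes are not reported here. Others named as examples were chosen after their values were seen. Ratios against a count of 0 used a floor of 3 counts, a bound that covers counting error only. Alternatives were DESeq2 1.42.0, RLE size factors, library totals, 1 model of all 16 libraries, no filter on low counts, the names of the RPKM table, mouse as a block, an adjusted p alone, another pseudocount (0.1), deposited RPKM values and each library left out.

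Cortex and cerebellum libraries carry the same animal tag, so the mouse number pairs the regions by design. Deviations from the group means correlated from -0.099 to 0.119 within a mouse and from -0.167 to 0.152 between mice. Within a group each library is a separate mouse, and the depth per sample limits the genes with under 10 counts in a library.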

Additional observations from a re-analysis of the deposited data

Results flagged for a closer look

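Of 36 sets of 4 libraries (9 genes in 4 groups), 2 held a library far from the other 3 by Dixon's criterion. By chance it marks about 1 in 20 sets, which is near this number. The sets are not independent, since the 9 genes share the same libraries, so that share is only a rough guide. The library flagged in both sets is the cortex library of wild-type mouse 3, which was highest in cortex for 7 of the 9 genes. Kl was at 4.59 CPM there, with a gap of 0.870 of the group's range to the next library, and Folr1 at 0.918 CPM, with a gap of 0.945 of the range. Folr1 rests on 20 counts in that library. Under the names of the RPKM table, tried after seeing the data, neither was apart (gaps of 0.119 and 0.287 of the range), and 3 of 36 sets held such a library, all in cortex: Ttr in wild-type mouse 3 (0.838), Folr1 in A391T mouse 1 (0.926) and Enpp2 in the library that the count files name wild-type mouse 2 (0.866). No gene of the 9 passed the test of the difference in region effect between genotypes.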

How the results depend on the processing

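The counts of the 9 genes called were recomputed under each alternative. In wild-type mice the region count of 9 moved to 4 with mouse as a replicate block together with the names of the RPKM table, and was 8 with the replicate block alone and with those names alone. In A391T mice it was 8, and 9 with the names of the table, with the table names and the block, and with library totals. Leaving out 1 library gave 8 to 9 genes in each genotype. The genotype counts stayed at 0 under every alternative run for them, which did not include the block, since a mouse has 1 genotype. The interaction stayed at 0 under its alternatives, the block included. Library totals in place of TMM moved the median log2 fold change of all genes from 0.018 to 0.14 in wild-type and from 0.026 to 0.16 in A391T region contrasts. The ratios over the cerebellum kept their size with library totals and with RPKM values, and 8 of the 10 most similar genes were shared with a pseudocount of 0.1.

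For A391T against wild-type cerebellum the names of the table reversed all 9 signs: Ttr 1.48, Kl 1.22, Folr1 1.44, Clic6 0.83, Otx2 0.42, Aqp1 1.45, Slc4a5 1.16, Enpp2 1.15 and Prlr 1.10. Without wild-type mice 2 and 3 of that naming the same order gave 0.48, 0.31, 0.47, 0.25, 0.23, 0.50, 0.41, 0.43 and 0.26. In cortex the sign of Enpp2 turned with the names of the table (0.023). With 1 library left out in turn, the cortex log2 fold change ran from -1.10 to 0.13 for Ttr, from -0.18 to 0.20 for Folr1, from -0.24 to 0.34 for Aqp1 and from -0.066 to 0.043 for Enpp2. Depth limits Aqp1 and Folr1 in the low cerebellum libraries (5 to 10 counts) and Slc4a5 in cortex (1 to 4 counts). The reversals with naming come from the exchange of 4 mice between genotypes, and the cause of the other changes was not tested.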

Other observations

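Slc39a4, a zinc transporter of the same family as Slc39a8, was not on the choroid plexus list and was picked out after its values were seen. It ranked 14th by likeness to the 9 genes over the cerebellum libraries (r = 0.981). Its level was 0.0416 CPM in A391T mouse 4 and 0.228 CPM in wild-type mouse 3, and both values rest on very few counts. It was at least 1.01 CPM and at most 2.28 CPM in the other 6 cerebellum libraries. In cortex it was from 0.334 to 0.882 CPM. Igfn1 had a similar likeness (r = 0.982) but was higher in every cortex library, from 18.5 to 40.1 CPM, than in any cerebellum library, where it reached at most 2.20 CPM.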
